A study of Mus musculus with 39 samples.

Results

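The data are the livers of 20 wildtype mice, 15 on a Western diet and 5 on chow, compared across all genes by function. They were all the wildtype livers among the 39 of the study, whose other 19 came from CD163 knockout mice. All mice were male and came from crosses of heterozygous carriers of the CD163tm1(KOMP)Vlcg allele on the C57BL/6NTac strain, so the wildtype mice are littermates of the knockouts. From an age of 6 weeks, the Western diet mice ate that diet for 8 weeks and drank water with fructose, so solid diet and sugar water cannot be told apart. The chow mice had a standard pellet (#1320 from Altromin) and plain water for the same time. RNA from snap-frozen whole liver was sequenced with 1 library per mouse, and mice are named here by diet and letter. In whole liver, fewer cells of a type and less RNA per cell cannot be told apart.

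The liver keeps its cholesterol steady by making it from acetyl-CoA through the mevalonate pathway, by taking up lipoproteins, and by exporting it into bile as such or as bile acids. The transcription factor SREBP-2 drives the synthesis enzymes and is held back when sterols are plentiful. The receptor LXR, which binds oxidised cholesterol, drives the canalicular sterol pumps and the gene of SREBP-1c, the main activator of fatty acid synthesis. Fructose enters through ketohexokinase past the main control step of glycolysis, and its products feed triglyceride synthesis and activate ChREBP, a sugar-sensing transcription factor.

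Both diets held 1 liver that stood with the other diet. A diet position was computed from 410 genes that differ between diets by 2-fold or more in the knockout livers alone (198 of them higher on Western diet), on a scale with the knockout chow mean at 0 and the knockout Western diet mean at 1. The 410 calls and the 2 means left out knockout chow D and knockout Western diet M, which also stood with the other diet. The point 0 is thus the mean of knockout chow A, B and C. With them, edgeR called 1 gene between the diets of the knockouts in the fit of all 39 livers, and DESeq2 called 164 genes higher and 66 lower; no scale was built from these. Western diet A was at 0.246 and the other 14 Western diet livers between 0.763 and 1.04. Chow A was at 0.852, and chow B, C, D and E were at 0.0831, 0.0882, 0.115 and 0.233. Cd163, the gene that the other mice lack, was at 2.59, 7.70 and 15.8 CPM, a gene's count scaled to the size of its library, in Western diet livers (lowest, median and highest), and at 4.95 to 13.1 CPM in chow livers, against at most 0.746 CPM in knockouts. Both livers A thus match their genotype label, at 6.19 CPM in Western diet A and 12.5 CPM in chow A. All 20 livers stayed under their labels, and each result is given with and without these 2. Why they stood apart was not tested. As the 2 livers were named because of their diet-responsive genes, p values without them are too small and are given as descriptions of the 14 and 4 other livers.

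**Figure D1:**
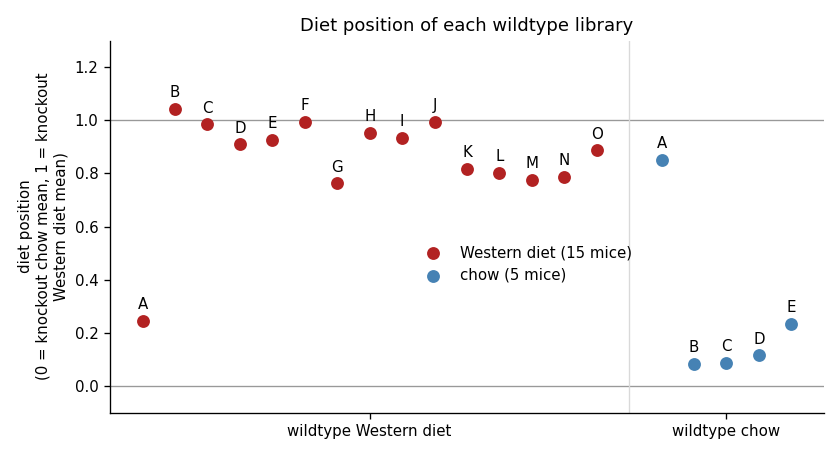
Diet position (y axis) of each wildtype library, with 15 Western diet livers on the left and 5 chow livers on the right, lettered by mouse. On this scale 0 is the mean of knockout chow livers without D, and 1 that of knockout Western diet livers without M. Western diet A (0.246) lies near chow B to E (0.0831 to 0.233), and chow A (0.852) lies within the range of Western diet B to O (0.763 to 1.04).

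The total count per library was 11021915 to 18909180 in Western diet and 12146027 to 18721406 in chow livers. Of 55416 genes in the table, 15296 had enough counts for the test, edgeR's quasi-likelihood test with Benjamini-Hochberg adjustment over all of them. A gene is called, and said to rise or fall, when its adjusted p is under 0.05. In all 20 livers, 118 genes (0.771% of those tested) were called higher and 94 (0.615%) lower on Western diet, of which 37 and 31 changed by 2-fold or more. Without both livers A, 2.72% of 15230 genes were called higher and 3.17% (483 genes) lower, 139 and 116 of them by 2-fold or more. The 2 sets share 206 genes in the same direction, 97.2% of the calls in all livers and 22.9% of the calls without the livers A. The median log2 fold change over all genes was close to 0 in both (-0.0032 and 0.00064), so a list's median can be read against 0. The smallest adjusted p in all 20 livers was 0.0141, so many calls lie close to the threshold. No gene was called without chow B, or with the library number of the labels as a covariate, and few were called without chow C (6 higher and 5 lower), D (3 and 3) or E (15 and 11). At an unadjusted p under 0.05 there were 2634 genes in all 20 livers.

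CPM values are scaled by TMM, compare 1 gene between livers and not genes with each other, since they are not divided by length. Fold changes are log2 values of Western diet over chow, and SEs are those implied by the test.

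Genes of cholesterol synthesis were the group with the most calls. Of the 21 enzymes of the mevalonate and sterol pathway, 0 rose and 5 fell in all livers, with a median log2 fold change of -1.11 and a negative sign in 20 of 21. Without both livers A, 18 of 21 fell and the median was -1.48. The 5 that fell in all livers were Mvk (mevalonate kinase), Fdft1 (squalene synthase), Cyp51 (lanosterol demethylase), Msmo1 (sterol-C4 methyl oxidase) and Nsdhl (sterol dehydrogenase). In 4 of them, and in the synthase of the first step, Hmgcs1, the promoter can be shown. Printed here, from RefSeq and on the build GRCm38.p6, are the 250 bases before and 50 bases after the start of these genes, to let the letters be read beside the values. Capitals mark CCAAT or its reverse complement ATTGG, the box bound by NF-Y, a partner of SREBP-2, and in Hmgcs1 also the sterol regulatory element core TCACNCCAC. Mvk lies at chr5:114444019-114444318 on the plus strand, Cyp51 at chr5:4104648-4104947 on the minus strand, Msmo1 at chr8:64733529-64733828 on the minus strand, Nsdhl at chrX:72918271-72918570 on the plus strand and Hmgcs1 at chr13:119690101-119690400 on the plus strand.
Mvk: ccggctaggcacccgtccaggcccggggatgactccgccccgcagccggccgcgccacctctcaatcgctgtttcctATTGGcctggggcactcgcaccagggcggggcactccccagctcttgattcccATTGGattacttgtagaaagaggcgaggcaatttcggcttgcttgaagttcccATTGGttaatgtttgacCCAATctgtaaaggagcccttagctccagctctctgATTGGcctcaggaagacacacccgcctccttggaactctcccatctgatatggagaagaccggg
Cyp51: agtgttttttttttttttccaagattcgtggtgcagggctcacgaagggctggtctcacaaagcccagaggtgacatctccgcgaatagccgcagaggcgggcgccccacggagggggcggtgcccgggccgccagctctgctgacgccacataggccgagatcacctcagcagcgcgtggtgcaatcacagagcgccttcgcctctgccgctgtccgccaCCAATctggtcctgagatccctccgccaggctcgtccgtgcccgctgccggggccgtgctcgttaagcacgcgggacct
Msmo1: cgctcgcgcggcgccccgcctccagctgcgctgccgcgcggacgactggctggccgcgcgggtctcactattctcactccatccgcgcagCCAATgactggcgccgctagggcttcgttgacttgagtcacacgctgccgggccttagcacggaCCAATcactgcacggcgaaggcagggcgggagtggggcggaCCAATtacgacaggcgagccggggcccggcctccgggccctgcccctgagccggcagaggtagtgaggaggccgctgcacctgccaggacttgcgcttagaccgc
Nsdhl: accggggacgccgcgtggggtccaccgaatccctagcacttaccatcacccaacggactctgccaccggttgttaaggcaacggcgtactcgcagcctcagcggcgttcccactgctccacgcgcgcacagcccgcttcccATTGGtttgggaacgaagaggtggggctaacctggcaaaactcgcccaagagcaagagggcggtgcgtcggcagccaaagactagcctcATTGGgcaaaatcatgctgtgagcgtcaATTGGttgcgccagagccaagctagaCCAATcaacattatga
Hmgcs1: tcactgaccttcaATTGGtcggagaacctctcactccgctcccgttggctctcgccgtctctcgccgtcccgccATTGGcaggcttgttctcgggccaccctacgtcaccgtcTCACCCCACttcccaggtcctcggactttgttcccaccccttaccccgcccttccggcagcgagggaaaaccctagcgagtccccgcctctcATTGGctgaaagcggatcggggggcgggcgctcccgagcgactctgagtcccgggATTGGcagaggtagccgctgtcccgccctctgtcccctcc

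CCAAT, on either strand, was in 15 of the 16 promoters found for this list (93.8%), against 41.1% of the 27025 genes of the promoter table. It was also in 11 of 16 promoters of the fatty acid synthesis list, 7 of 11 of sterol sensing and uptake and 3 of 4 of the export pumps. Of the genes called in all livers, 48.5% of those lower and 41.4% of those higher held it, against 42.5% of genes tested. The box was thus not particular to genes that fell. The core TCACNCCAC, on either strand, was in 1 of 16, Hmgcs1, at position -137 from the start, against 1.44% of all genes. It was also in 1 of 16 of the fatty acid synthesis list, Mlxipl, at position -136 from 1 of its starts. It was in 0 of 11 of sterol sensing and uptake and 0 of 4 of the export pumps. It was in 1.52% of genes called lower and 3.45% of genes called higher in all livers. A gene with several starts counted once, and was counted as holding a motif when any start held it. These are matches of letters, and the table's build differs from the one the counts refer to, so no place in the counted genome is given.

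Msmo1 (ENSMUSG00000031604) was at 17.6, 32.5 and 222 CPM in Western diet livers (lowest, median and highest), against 34.5, 192, 225, 250 and 199 CPM in chow livers A to E. The highest Western diet liver was A and the lowest chow liver was A. Without them the groups did not overlap, with a highest Western diet value of 51.0 CPM and a lowest chow value of 192 CPM. The log2 fold change was -2.05 (adjusted p = 0.0447, SE 0.52) in all livers and -2.82 (adjusted p = 0.000306, SE 0.44) without both livers A. Cyp51 (ENSMUSG00000001467) was at 24.7, 34.3 and 210 CPM in Western diet livers, against 44.3, 219, 236, 233 and 214 CPM in chow livers A to E. It showed the same 2 livers out of place, with log2 fold changes of -1.90 (adjusted p = 0.0317, SE 0.45) with them and -2.53 (adjusted p = 0.000306, SE 0.39) without. Mvk (ENSMUSG00000041939) was at 8.26, 12.1 and 36.3 CPM in Western diet livers, against 9.05, 43.7, 41.9, 44.3 and 47.4 CPM in chow livers A to E, with log2 fold changes of -1.39 (adjusted p = 0.0291, SE 0.32) and -1.81 (adjusted p = 0.000273, SE 0.27). Chow A was thus the lowest chow liver for each of these enzymes, and Western diet A the highest Western diet liver.

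Fdft1 had log2 fold changes of -1.64 (adjusted p = 0.0466) with and -2.22 (adjusted p = 0.000432) without both livers A, and Nsdhl of -1.77 (adjusted p = 0.0476) and -2.37 (adjusted p = 0.000876). Squalene epoxidase, Sqle (ENSMUSG00000022351), had the steepest fold change of the list but missed the threshold in all livers. It was at 1.69, 4.26 and 84.3 CPM in Western diet livers, against 8.26, 90.4, 102, 84.2 and 94.3 CPM in chow livers A to E. Its log2 fold change was -2.89 (adjusted p = 0.0562, SE 0.80), and -4.25 (adjusted p = 0.000552, SE 0.70) without both livers A, where the groups did not overlap. The same held for Idi1, the isopentenyl diphosphate isomerase, with -1.91 (adjusted p = 0.0592) and -2.73 (adjusted p = 0.000584). It also held for Hmgcs1 with -1.51 (adjusted p = 0.0679) and -2.05 (adjusted p = 0.00183), a gene outside the naming rule and named for its promoter. Dhcr7 and Lss, a late reductase and lanosterol synthase, had the same pattern, with -1.11 (adjusted p = 0.0532) and -1.00 (adjusted p = 0.0574) in all livers and -1.48 (adjusted p = 0.00144) and -1.36 (adjusted p = 0.00103) without.

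**Figure D2:**
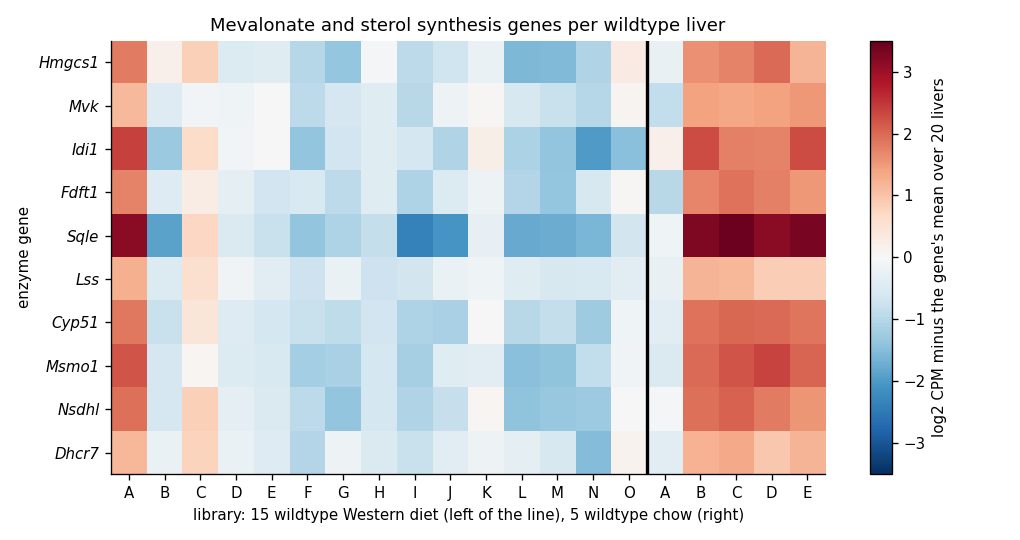
Level of 10 of the 21 mevalonate and sterol synthesis genes, those with values in the text (rows, in pathway order), in 20 wildtype livers (columns, 15 Western diet on the left of the line and 5 chow on the right), as log2 CPM minus the gene's mean. The mean level of all 21 was 6.99 log2 CPM in Western diet A, against 4.69 to 6.09 in the other 14 Western diet livers, and 5.19 in chow A, against 6.76 to 6.94 in chow B to E.

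Genes of sterol sensing and uptake moved less. Of 16 tested members, 0 rose and 1 fell in all livers, and 3 fell without both livers A, with medians of -0.02 and -0.14. Srebf2 (ENSMUSG00000022463), which encodes SREBP-2, was at 42.4, 52.5 and 76.1 CPM in Western diet livers, against 40.0, 88.4, 87.0, 80.2 and 88.6 CPM in chow livers A to E. Chow A was the lowest of all 20 livers, and without both livers A the groups did not overlap. Its log2 fold change was -0.54 (adjusted p = 0.0466, SE 0.14) and -0.75 (adjusted p = 0.000432, SE 0.12). Stard4, a sterol carrier, was called without both livers A only, at -0.71 (adjusted p = 0.0354) against -0.53 (adjusted p = 0.174) in all livers.

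Several canalicular pumps for sterols and phospholipid rose. Of 6 tested members of that list, 3 rose in all livers and 4 without both livers A, 0 fell, and the medians were 0.43 and 0.66. Abcg5 (ENSMUSG00000040505), one part of the pump that sends cholesterol into bile, was at 70.1, 274 and 479 CPM in Western diet livers, against 203, 64.1, 48.5, 74.0 and 72.7 CPM in chow livers A to E. Western diet A was the lowest Western diet liver and chow A the highest chow liver, and the other livers did not overlap. The log2 fold change was 1.61 (adjusted p = 0.0303, SE 0.37), and 2.20 (adjusted p = 0.000432, SE 0.36) without both livers A. Its partner Abcg8 had 1.36 (adjusted p = 0.0466) and 1.85 (adjusted p = 0.00125), but both genes overlap on opposite strands, so their reads may be shared and they may not be separate calls. Abcb4, the phosphatidylcholine pump of bile, had 0.49 (adjusted p = 0.0466) and 0.61 (adjusted p = 0.00566). Abca1, which loads cholesterol on apolipoproteins and is a classical LXR target, was called only without both livers A, at 0.70 (adjusted p = 0.0207), against 0.37 (adjusted p = 0.322) in all livers.

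Bile acid genes were mostly not called. Of 17 tested genes of bile acid synthesis, 0 were called in all livers, and 4 rose and 1 fell without both livers A, with medians of 0.10 and 0.08. The shares over all genes were 0.771% higher and 0.615% lower in all livers, and 2.72% and 3.17% without both livers A. Cyp7a1 (ENSMUSG00000028240), the rate-limiting enzyme of the classical pathway, was at 10.2, 31.1 and 125 CPM in Western diet livers, against 25.1, 46.3, 46.3, 112 and 86.2 CPM in chow livers A to E. The groups overlapped with and without both livers A, and the log2 fold change was -0.60 (adjusted p = 0.447, SE 0.39) and -1.03 (adjusted p = 0.0858, SE 0.37). The 4 that rose without the livers A included the peroxisomal genes Hsd17b4 (0.52, adjusted p = 0.0218) and Scp2 (0.50, adjusted p = 0.0223), which shorten the side chain. Among 15 tested genes of bile acid sensing and transport, 1 fell in both sets. This was Slco1a4 (ENSMUSG00000030237), a basolateral uptake transporter, at 2.07, 7.47 and 26.1 CPM in Western diet livers, against 3.26, 62.6, 19.9, 31.1 and 43.6 CPM in chow livers A to E. Its log2 fold change was -1.69 (adjusted p = 0.0456, SE 0.43) and -2.15 (adjusted p = 0.00109, SE 0.39), and chow A lay far under chow B to E.

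A few genes that make taurine, with which mice conjugate bile acids, fell. In the list of 11 tested genes of taurine and cysteine metabolism, 0 rose and 2 fell in all livers, and 3 fell without both livers A. The medians were -0.06 and -0.11, so the fall was that of single members. Csad (ENSMUSG00000023044), the decarboxylase that makes hypotaurine, was at 110, 155 and 381 CPM in Western diet livers, against 253, 764, 670, 583 and 734 CPM in chow livers A to E. Here chow A, although the lowest chow liver, stayed above 14 of 15 Western diet livers, and Western diet A lay between the groups. Its log2 fold change was -1.83 (adjusted p = 0.0198, SE 0.34) and -2.16 (adjusted p = 0.000306, SE 0.34). Cth, which makes cysteine from cystathionine, had -0.92 (adjusted p = 0.0198) and -1.19 (adjusted p = 0.000165).

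Genes of fatty acid synthesis gave few calls, and 13 of 16 fold changes were positive in both sets. Of 16 tested members, 1 rose in all livers and 3 without both livers A, 0 fell, and the medians were 0.40 and 0.45. The shares called higher over all genes were 0.771% in all livers and 2.72% without both livers A. Srebf1 (ENSMUSG00000020538), the gene of SREBP-1c, was at 520, 868 and 1976 CPM in Western diet livers, against 621, 265, 211, 317 and 420.7 CPM in chow livers A to E. Chow A exceeded Western diet A, and the other livers did not overlap. The log2 fold change was 1.38 (adjusted p = 0.0198, SE 0.29) and 1.70 (adjusted p = 0.00122, SE 0.31). Acaca, the acetyl-CoA carboxylase that makes malonyl-CoA, and Thrsp, a lipogenic regulator, were called without both livers A only, at 1.20 (adjusted p = 0.0264) and 1.69 (adjusted p = 0.0207). Fasn (ENSMUSG00000025153), the fatty acid synthase, was at 739, 1324 and 6317 CPM in Western diet livers, against 950, 710, 731, 496 and 824 CPM in chow livers A to E. Its Western diet livers spread widely and overlapped with chow, and it was not called, at 1.13 (adjusted p = 0.145, SE 0.41) and 1.25 (adjusted p = 0.0991, SE 0.47).

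Of 15 tested genes of desaturation and elongation, 1 rose in both sets, Scd1 (ENSMUSG00000037071), the desaturase that makes oleate from stearate. It was at 8104, 15988 and 43448 CPM in Western diet livers, against 11169, 6219, 5282, 4097 and 2707 CPM in chow livers A to E. The log2 fold change was 1.58 (adjusted p = 0.0493, SE 0.42), and 2.00 (adjusted p = 0.00910, SE 0.46) without both livers A, where the groups did not overlap. Triglyceride assembly had 2 of 16 tested members higher in all livers and 3 without both livers A, 0 lower, and medians of 0.33 and 0.31. Gpd1 (ENSMUSG00000023019), which makes glycerol 3-phosphate, was at 445, 567 and 851 CPM in Western diet livers, against 405.9, 361, 337, 440 and 413.2 CPM in chow livers A to E. Its groups did not overlap even with both livers A in place, with 0.65 (adjusted p = 0.0351, SE 0.16) and 0.69 (adjusted p = 0.0143, SE 0.17). Agpat2, an acyltransferase of the same path, had 0.45 (adjusted p = 0.0466) and 0.43 (adjusted p = 0.0369).

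Lipid droplet proteins and lipases had 1 of 20 tested members higher in all livers and 5 without both livers A, 0 lower, with 19 of 20 on the positive side in all livers and medians of 0.41 and 0.43. Mgll (ENSMUSG00000033174), the monoglyceride lipase, was at 247, 354 and 468 CPM in Western diet livers, against 278, 140, 233, 249 and 180 CPM in chow livers A to E, with 0.70 (adjusted p = 0.0317, SE 0.17) and 0.84 (adjusted p = 0.00500, SE 0.18). Plin2 (ENSMUSG00000028494), which coats droplets in hepatocytes, was at 448, 752 and 1055 CPM in Western diet livers, against 717, 392, 452, 504 and 356 CPM in chow livers A to E. It was called only without both livers A, with 0.81 (adjusted p = 0.0279, SE 0.23) against 0.59 (adjusted p = 0.138, SE 0.21) in all livers. Cideb, which promotes droplet and lipoprotein lipidation, had 0.41 (adjusted p = 0.0692) and 0.43 (adjusted p = 0.0322). Pnpla3 (ENSMUSG00000041653), a lipase relative that responds to sugar, was at 1.88, 14.3 and 118 CPM in Western diet livers, against 32.8, 2.03, 3.14, 0.985 and 0.906 CPM in chow livers A to E. Chow A was above the median Western diet liver and Western diet A below chow B, and the log2 fold change was 1.52 (adjusted p = 0.341, SE 0.83) with and 3.81 (adjusted p = 0.0157, SE 0.96) without them. Cidec (ENSMUSG00000030278), a droplet fusion protein, was at 4.51, 14.2 and 56.8 CPM in Western diet livers, against 9.27, 3.57, 6.19, 5.70 and 3.09 CPM in chow livers A to E. It spread so widely among Western diet livers that it was not called in either set, at 1.94 (adjusted p = 0.131, SE 0.68) and 2.28 (adjusted p = 0.0688, SE 0.77).

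Fatty acid uptake and binding had 0 of 19 tested members called in all livers and 2 higher without both livers A. Fabp2, the intestinal fatty acid binding protein, had 1.08 (adjusted p = 0.0763) and 1.65 (adjusted p = 0.00193). Cd36 (ENSMUSG00000002944), a fatty acid translocase, was at 15.0, 40.2 and 181 CPM in Western diet livers, against 87.0, 11.5, 26.5, 40.7 and 17.9 CPM in chow livers A to E, with overlapping groups and no call at 0.98 (adjusted p = 0.398, SE 0.59) and 1.63 (adjusted p = 0.134, SE 0.66). Of 20 tested genes of apolipoproteins and lipoprotein assembly, 1 rose in all livers and 2 without both livers A. Apoa4 (ENSMUSG00000032080), an apolipoprotein of chylomicrons that the fatty liver also makes, had the largest rise of the genes named here and called in all livers. It was at 77.1, 873 and 2404 CPM in Western diet livers, against 190, 69.8, 56.6, 87.5 and 116 CPM in chow livers A to E. All Western diet livers but A lay above all chow livers, and the log2 fold change was 3.26 (adjusted p = 0.0198, SE 0.69) and 3.69 (adjusted p = 0.00235, SE 0.72). Mttp, which loads lipid on apolipoprotein B, was called without both livers A, at 0.62 (adjusted p = 0.00936) against 0.47 (adjusted p = 0.0753).

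Sphingolipid and phosphatidylcholine metabolism had 2 of 29 tested members higher in all livers, and 4 higher and 3 lower without both livers A. Smpd3 (ENSMUSG00000031906), the neutral sphingomyelinase, was at 0.789, 9.85 and 17.2 CPM in Western diet livers, against 3.04, 1.17, 1.07, 0.493 and 1.49 CPM in chow livers A to E, with 2.66 (adjusted p = 0.0312, SE 0.62) and 3.18 (adjusted p = 0.00380, SE 0.66). Asah2, the neutral ceramidase, had 0.63 (adjusted p = 0.0232) and 0.82 (adjusted p = 0.000660), so genes of the neutral enzymes that cut sphingomyelin and ceramide both rose. Asah1, the acid ceramidase, went the other way and was called without both livers A only, at -0.50 (adjusted p = 0.0145). So did Degs1, a desaturase that makes ceramide, at -0.39 (adjusted p = 0.0274). Among those called without both livers A only were Lpcat3, which puts polyunsaturated chains on phospholipid, at 0.56 (adjusted p = 0.0337), and Pemt, which makes phosphatidylcholine by methylation, at -0.36 (adjusted p = 0.0205).

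**Figure D3:**
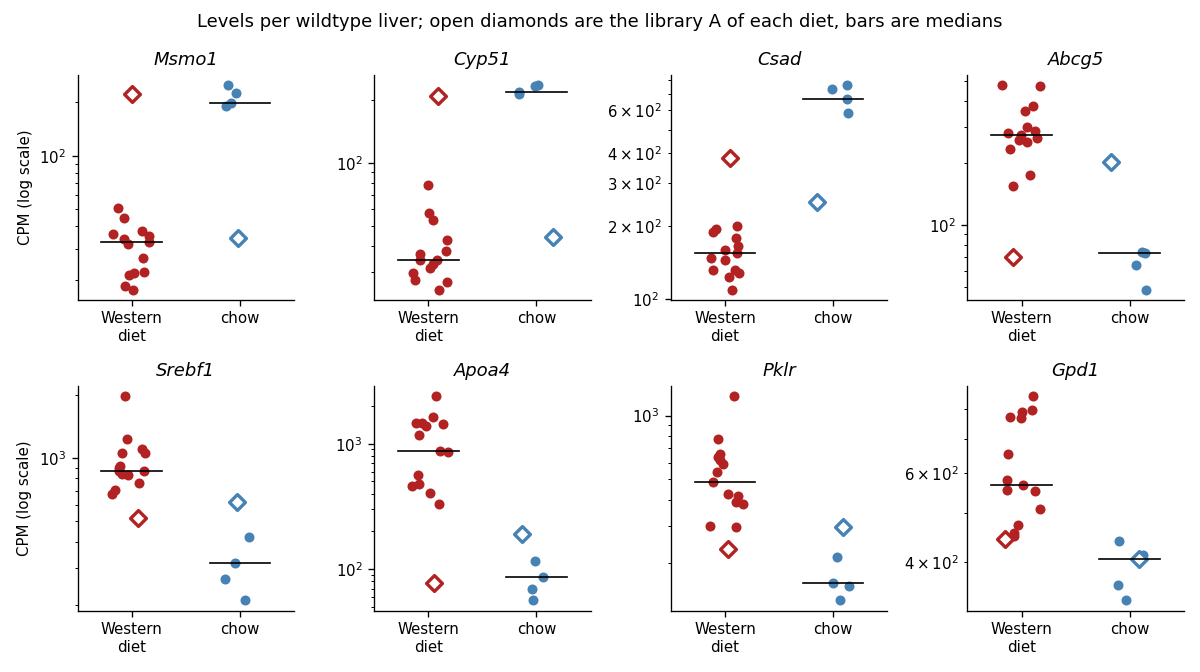
CPM (log axis) of 8 genes in wildtype livers, with 15 Western diet livers left and 5 chow livers right in each panel. Open diamonds mark liver A of each diet and bars are medians. Msmo1, Cyp51 and Csad are lower, and Abcg5, Srebf1, Apoa4, Pklr and Gpd1 higher, on Western diet, and except for Gpd1 both diamonds lie toward the other diet.

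Some genes that take up fructose carbon rose. Of 10 tested members, 2 rose in all livers, and 4 rose and 1 fell without both livers A, with medians of 0.49 and 0.61. Khk (ENSMUSG00000029162), ketohexokinase, which phosphorylates fructose, was at 711, 943 and 1563 CPM in Western diet livers, against 653, 540, 619, 527 and 500 CPM in chow livers A to E. Every Western diet liver lay above every chow liver, with 0.77 (adjusted p = 0.0198, SE 0.17) and 0.85 (adjusted p = 0.00502, SE 0.18). Tkfc, the triose kinase of the same path, had 0.86 (adjusted p = 0.0460) and 1.08 (adjusted p = 0.00403).

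Glycolysis and glucose uptake had 2 of 25 tested members higher in all livers and 6 without both livers A, 0 lower, and medians of 0.27 and 0.24. Pklr (ENSMUSG00000041237), the liver pyruvate kinase and a ChREBP target, was at 235, 486 and 1240 CPM in Western diet livers, against 299, 214, 156, 134 and 162 CPM in chow livers A to E, with 1.47 (adjusted p = 0.0291, SE 0.33) and 1.73 (adjusted p = 0.00380, SE 0.36). Its neighbour Hcn3, an ion channel gene that overlaps it on the opposite strand, had 2.03 (adjusted p = 0.0198) and 2.31 (adjusted p = 0.00327). Since the strand setting of the counting is not given in the sources used here, reads of the pair cannot be told apart. Slc2a4 (ENSMUSG00000018566), the insulin-responsive glucose transporter of muscle and fat, was at 0.485, 2.32 and 10.5 CPM in Western diet livers, against 1.23, 0.123, 0, 0 and 0.266 CPM in chow livers A to E, with 3.16 (adjusted p = 0.0318, SE 0.75) and 4.71 (adjusted p = 0.00152, SE 0.89). Its level was low throughout, with 0 counts in chow C and D. Gpi1, the phosphoglucose isomerase, was called without both livers A only, at 0.63 (adjusted p = 0.0185). Gluconeogenesis and glycogen genes had 1 of 20 higher in all livers and 6 without both livers A, 0 lower, and a median of 0.21 in both. Pcx (ENSMUSG00000024892), pyruvate carboxylase, was at 371, 696 and 1134 CPM in Western diet livers, against 458, 416.8, 358, 345 and 403.3 CPM in chow livers A to E, with 0.85 (adjusted p = 0.0375, SE 0.21) and 0.96 (adjusted p = 0.00822, SE 0.22). Pygl, which breaks glycogen down, and Gys2, which makes it, both had positive fold changes, called without both livers A at 0.74 (adjusted p = 0.00902) and 0.55 (adjusted p = 0.00738).

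Oxidation genes gave few calls, but most fold changes of the mitochondrial and PPARA lists were positive. In mitochondrial beta-oxidation and ketogenesis, 0 of 25 tested genes were called in all livers and 3 rose without both livers A, among them Cpt1a, the gate for fatty acids into mitochondria, at 0.82 (adjusted p = 0.0146) against 0.67 (adjusted p = 0.0702). Among 28 tested PPARA targets of peroxisomal and omega-oxidation, 1 rose in both sets, Creb3l3, a liver transcription factor of triglyceride metabolism, at 0.30 (adjusted p = 0.0476) and 0.30 (adjusted p = 0.0274). Medians were 0.20 and 0.31 for the mitochondrial list and 0.27 and 0.35 for the PPARA list. In the mitochondrial list 22 of 25 fold changes were positive in both sets, and in the PPARA list 24 and 23 of 28. Over all genes, 0.771% were called higher in all livers and 2.72% without both livers A. Of 38 tested nuclear genes of the respiratory chain, 0 were called in either set, and the medians were -0.04 and -0.04. Acot11 (ENSMUSG00000034853), a thioesterase found by its fold change and not by a list, was at 12.1, 27.3 and 45.3 CPM in Western diet livers, against 22.2, 3.51, 5.70, 4.57 and 6.55 CPM in chow livers A to E, with 1.74 (adjusted p = 0.0317, SE 0.41) and 2.53 (adjusted p = 0.000507, SE 0.42).

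**Figure D4:**
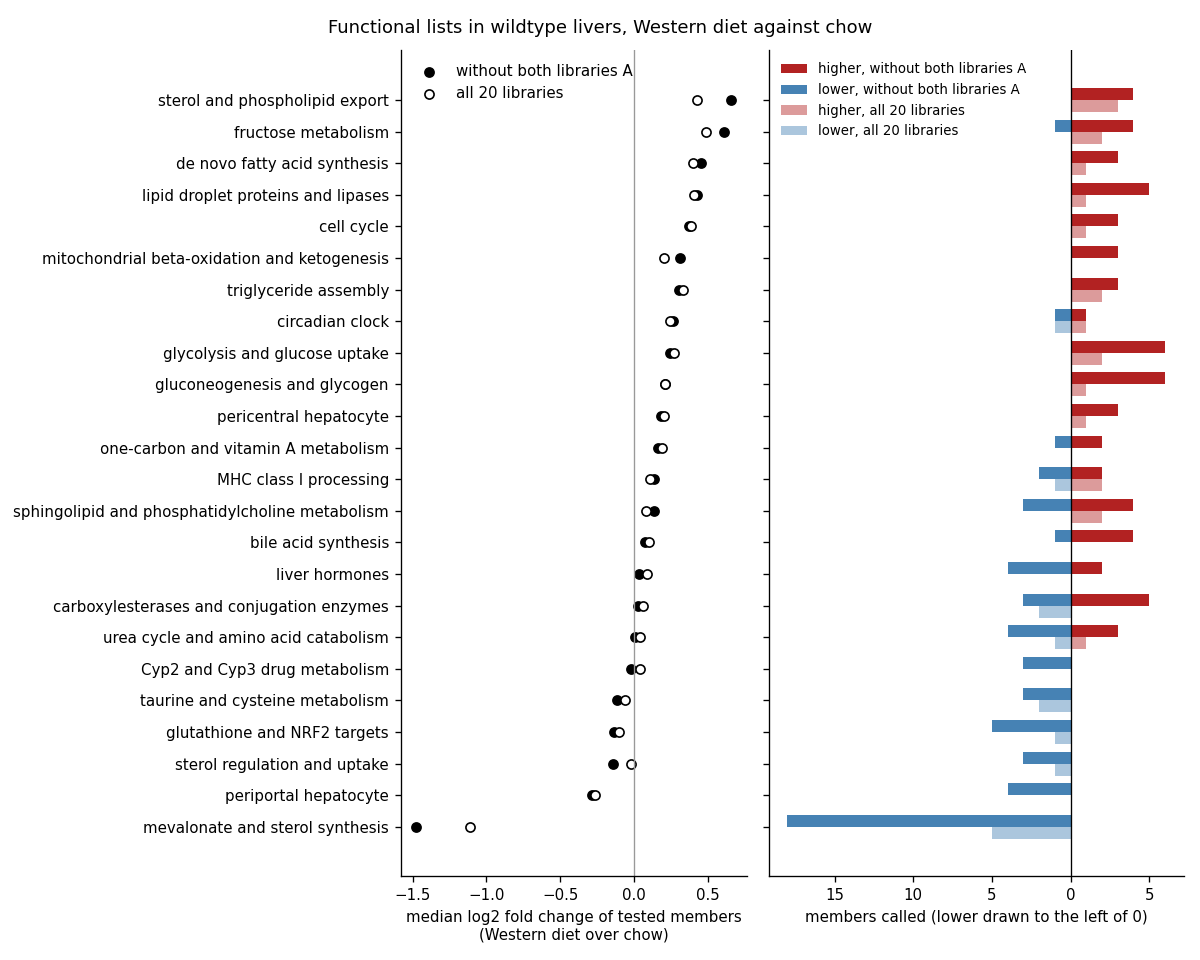
Left, median log2 fold change of the tested members of each list with at least 2 calls in all livers or 3 without both livers A (filled, without both livers A, and open, all 20 livers). Right, number of members called higher (red) and lower (blue, drawn to the left of 0). Mevalonate and sterol synthesis lies lowest, at -1.48 and -1.11, with 18 and 5 members called lower.

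Drug and conjugation enzymes went both ways. Of 33 tested carboxylesterases and conjugation enzymes, 0 rose and 2 fell in all livers, and 5 rose and 3 fell without both livers A, with medians of 0.06 and 0.02. Ces1b (ENSMUSG00000078964), a carboxylesterase, was at 13.1, 20.5 and 52.5 CPM in Western diet livers, against 12.1, 71.4, 70.0, 73.5 and 58.1 CPM in chow livers A to E, with -1.31 (adjusted p = 0.0303, SE 0.30) and -1.71 (adjusted p = 0.000273, SE 0.26). Ces2a, another, had -0.73 (adjusted p = 0.0198) and -0.87 (adjusted p = 0.00109), and Ces1c, which is secreted into plasma, -0.46 (adjusted p = 0.0740) and -0.61 (adjusted p = 0.00573). The 5 that rose without both livers A included other carboxylesterases. Ces2c was at 0.99 (adjusted p = 0.0358), Ces2e at 0.92 (adjusted p = 0.0324) and Ces2g at 0.50 (adjusted p = 0.0281). These esterases lie in clusters of close relatives, whose reads the counting may have split. Among 34 tested genes of glutathione metabolism and NRF2 targets, 0 rose, 1 fell in all livers and 5 fell without both livers A. Gsta4 (ENSMUSG00000032348), a glutathione transferase for lipid aldehydes, was at 14.0, 20.9 and 59.0 CPM in Western diet livers, against 20.4, 60.7, 68.6, 69.2 and 33.8 CPM in chow livers A to E, with -1.20 (adjusted p = 0.0414, SE 0.30) and -1.58 (adjusted p = 0.000507, SE 0.26). Gstm1, of the mu class, had -0.77 (adjusted p = 0.167) and -1.06 (adjusted p = 0.0216). Of 31 tested Cyp2 and Cyp3 genes, 0 were called in all livers and 3 fell without both livers A, all of the Cyp2c family, for example Cyp2c55 at -1.54 (adjusted p = 0.00152). That list leaves out other members of these families. Among them, named after their values were seen, Cyp2d40 rose, at 1.22 (adjusted p = 0.0351) and 1.58 (adjusted p = 0.00125), and Cyp2c68 fell, at -0.82 (adjusted p = 0.0466) and -0.99 (adjusted p = 0.00759).

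Amino acid genes gave 1 higher and 1 lower of 42 tested in all livers, and 3 higher and 4 lower without both livers A. Agxt (ENSMUSG00000026272), the peroxisomal enzyme that clears glyoxylate, was at 121, 202 and 273 CPM in Western diet livers, against 147, 459, 377, 338 and 346 CPM in chow livers A to E, with -0.73 (adjusted p = 0.0419, SE 0.18) and -0.95 (adjusted p = 0.000992, SE 0.17). Glul, glutamine synthetase of the cells around the central vein, rose, at 0.46 (adjusted p = 0.0498) and 0.49 (adjusted p = 0.0295). Zone markers had few calls in all livers. Of 19 tested pericentral genes, 1 rose in all livers, Glul, and 3 without both livers A, with medians of 0.20 and 0.18. Their fold changes were positive in 15 and 14 of 19. Of 17 tested periportal genes, 0 were called in all livers and 4 fell without both livers A, with medians of -0.27 and -0.28. Hal, histidine ammonia lyase, was one of these 4, at -0.91 (adjusted p = 0.00705) against -0.68 (adjusted p = 0.0809). Periportal fold changes were negative in 13 of 17 in all livers and 15 of 17 without both livers A. Over all genes, 3.17% were called lower without both livers A. In knockouts, without the 4 livers that stood with the other diet, 0 of 17 periportal genes were called and the median was -0.008.

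Clock genes had 1 of 20 tested members higher and 1 lower in both sets. Rora, a nuclear receptor of the clock, fell in both, at -0.36 (adjusted p = 0.0266) and -0.37 (adjusted p = 0.0129). Arntl, the core clock activator whose level swings over the day, was at 8.79, 24.9 and 31.2 CPM in Western diet livers and between 15.9 and 31.7 CPM in chow livers, with -0.11 (adjusted p = 0.858).

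Among 31 tested liver hormones, 0 were called in all livers, and 2 rose and 4 fell without both livers A. Hamp (ENSMUSG00000050440), the gene of the iron hormone hepcidin, was at 84.5, 228 and 1337 CPM in Western diet livers, against 720, 854, 942, 937 and 930 CPM in chow livers A to E. Western diet A was the highest of all livers, chow A was the lowest chow liver, and the log2 fold change was -1.37 (adjusted p = 0.119, SE 0.47) and -1.77 (adjusted p = 0.0146, SE 0.44). Igf1, the growth factor through which growth hormone acts, had -0.46 (adjusted p = 0.0674) and -0.60 (adjusted p = 0.00705), and the fetuin gene Fetub -0.46 (adjusted p = 0.0566) and -0.62 (adjusted p = 0.00291). Enho, which encodes adropin, had -2.06 (adjusted p = 0.127) and -2.49 (adjusted p = 0.0354), and it overlaps Dnaic1 on the opposite strand, so their reads may be shared. Dnaic1, a dynein chain gene of cilia that is outside the naming rule, had -3.22 (adjusted p = 0.0198) and -3.58 (adjusted p = 0.000507), with a mean level of 0.218 CPM in Western diet and 2.03 CPM in chow livers. The iron list held only Hamp as a call, in the set without both livers A, among 31 tested genes.

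Genes outside the lists changed as well. Adgrf1 (ENSMUSG00000041293), an adhesion receptor, was at 0.396, 0.890 and 2.61 CPM in Western diet livers, against 0.724, 10.7, 5.78, 7.32 and 5.59 CPM in chow livers A to E. The log2 fold change was -2.51 (adjusted p = 0.0198, SE 0.50), and -2.97 (adjusted p = 0.000507, SE 0.49) without both livers A, where the groups did not overlap. Bglap3, a relative of osteocalcin, had -1.91 (adjusted p = 0.0198) and -1.73 (adjusted p = 0.0143), and here chow A, at 6.45 CPM, stood with the chow livers (1.90 to 9.41 CPM in chow B to E), as did Western diet A, at 0.546 CPM, with its own diet. Adam11 (ENSMUSG00000020926), a member of a family of membrane proteases without the catalytic site, was at 22.0, 184 and 286 CPM in Western diet livers, against 136, 21.7, 24.2, 31.0 and 40.3 CPM in chow livers A to E, with 1.88 (adjusted p = 0.0419, SE 0.47) and 2.75 (adjusted p = 0.000306, SE 0.43). Gpc1 (ENSMUSG00000034220), a cell surface proteoglycan, was at 6.79, 22.7 and 48.7 CPM in Western diet livers, against 4.85, 4.87, 3.71, 6.76 and 5.97 CPM in chow livers A to E, and its groups did not overlap in all 20 livers, with 2.14 (adjusted p = 0.0466, SE 0.55) and 2.18 (adjusted p = 0.0279, SE 0.61).

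Further rises in all livers were those of Dkk4, a secreted Wnt inhibitor, at 2.75 (adjusted p = 0.0419), Grin3b, a glutamate receptor subunit, at 2.31 (adjusted p = 0.0198), and Gna14, a G protein subunit, at 1.81 (adjusted p = 0.0466). Rab11fip4, an effector of vesicle recycling, fell, at -1.35 (adjusted p = 0.0498), and so did Aldoc, the brain aldolase, at -1.24 (adjusted p = 0.0483), a gene outside the naming rule and chosen after its values were seen. Of these, the chow level of Dkk4 and Grin3b was under 1 CPM in every chow liver. Called without both livers A only were Ntrk2, a neurotrophin receptor, at 4.28 (adjusted p = 0.0108), Slc13a2, a citrate and succinate transporter, at -3.29 (adjusted p = 0.00275), and Srgap3, a regulator of small GTPases, at -2.37 (adjusted p = 0.00246). Lrp5, a Wnt co-receptor, was called in all livers at 0.45 (adjusted p = 0.0466) and not without both livers A, at 0.41 (adjusted p = 0.0525).

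Genes of immune, stromal and vascular cells were nearly all without a call. In the lists for Kupffer cells (20 tested), recruited and lipid-associated macrophages (22), neutrophils (11), lymphocytes (14), dendritic cells and MHC class II (13), interferon-stimulated genes (38) and sinusoidal endothelium (28), 0 genes were called in either set. The shares over all genes were 0.771% higher and 0.615% lower in all livers, and 2.72% and 3.17% without both livers A. Trem2 (ENSMUSG00000023992), a marker of lipid-associated macrophages, was at 0.380, 2.12 and 4.51 CPM in Western diet livers, against 2.03, 0.801, 0.743, 1.27 and 1.54 CPM in chow livers A to E, with overlapping groups and 0.66 (adjusted p = 0.570). Among 44 tested stellate cell and matrix genes, 0 were called in all livers and 1, Acta2, the smooth muscle actin of activated stellate cells, was lower without both livers A, at -0.93 (adjusted p = 0.0459). Col1a1 (ENSMUSG00000001506), the main fibre collagen, was at 13.5, 26.7 and 59.0 CPM in Western diet livers, against 21.4, 37.7, 21.3, 17.6 and 30.4 CPM in chow livers A to E, with 0.10 (adjusted p = 0.933) and 0.03 (adjusted p = 0.976). Of 36 tested chemokines and inflammation genes, 0 were called in all livers and 1 fell without both livers A, the chemokine Ccl9, at -1.41 (adjusted p = 0.0106). The MHC class I list had 2 of 19 higher and 1 lower in all livers. Tap1, the peptide transporter, had 0.57 (adjusted p = 0.0198) and 0.66 (adjusted p = 0.00109), Psmb9, an immunoproteasome subunit, 0.51 (adjusted p = 0.0303) and 0.58 (adjusted p = 0.00864), and the proteasome activator Psme1 -0.30 (adjusted p = 0.0466) and -0.37 (adjusted p = 0.00409). Tap1 and Psmb9 overlap on opposite strands, so their reads may be shared too.

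Acute phase genes varied between livers of the same diet. Of 31 tested, 0 were called in all livers and 1 rose without both livers A. Saa1 (ENSMUSG00000074115), serum amyloid A, was at 34.2, 271 and 9315 CPM in Western diet livers, against 1397, 43.5, 125, 38.3 and 2067 CPM in chow livers A to E. The Western diet livers span more than the difference between the diets, chow A and E stand far above chow B, C and D, and the log2 fold change was 0.90 (adjusted p = 0.732, SE 1.14). Mt1, a metallothionein, had the same livers high in chow, with 39.7 and 96.9 CPM there and at most 9.15 CPM in the other 3, and 1.07 (adjusted p = 0.608). The list's mean level was 8.77 and 8.73 log2 CPM in chow A and E, against 6.89 to 7.36 in chow B, C and D. Without both livers A and chow E, 310 genes were called higher and 436 lower. Without the 5 Western diet livers of the highest acute phase level (F, G, L, M and N), 127 were called higher and 65 lower. Cell cycle genes had 1 of 35 higher in all livers, Ccne1, cyclin E1, at 1.37 (adjusted p = 0.0476), and 3 without both livers A. The coagulation list had 1 of 31 lower in all livers, Klkb1, plasma prekallikrein, at -0.43 (adjusted p = 0.0466). In the stress response list, 0 of 31 were called in all livers, and 1 rose and 1 fell without both livers A. Chac1, a glutathione-degrading enzyme of that response, rose, at 1.77 (adjusted p = 0.0136). Atf4, a transcription factor of the same response, fell, at -0.47 (adjusted p = 0.037).

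Of the tested markers that define cell types, 0 were called in either set. Many had too few counts for the test, which took in 0 of 4 adipocyte, 1 of 6 pancreas, 2 of 6 neutrophil and 3 of 5 cholangiocyte markers. Over all genes, 0.771% were called higher and 0.615% lower in all livers, so 0 calls there among few markers says little about them. The summed level of 8 hepatocyte markers was 49655 to 84460 CPM in Western diet and 45546 to 84838 CPM in chow livers. The 6 Kupffer cell markers summed to 63.1 to 375 CPM in Western diet and 105 to 178 CPM in chow livers, and the 6 red blood cell markers to 103 to 251 CPM and 103 to 117 CPM. For the 6 neutrophil markers the sums were 0.126 to 19.4 CPM in Western diet and 0.308 to 10.9 CPM in chow livers, with the highest chow sum in chow E. Adipocyte markers summed to at most 0.509 CPM in Western diet and 0.352 CPM in chow livers, with Adipoq, Lep, Plin1 and Retn at 0 in more than 10 livers. The part of these cells in the gene changes was not tested.

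Knockout livers, which share no library with the wildtype ones, give a second view of the same diets. In all 19 of them edgeR called 0 genes higher and 1 lower on Western diet. There, 212 of the 212 genes called in all wildtype livers had the same sign, and 1 was called in the same direction. Without the 4 livers out of place, 1498 of 15461 genes (9.69%) were called higher and 1159 (7.50%) lower in knockouts. As knockout chow D and Western diet M were left out because of their diet-responsive genes, the p values of that set are too small and its calls are a description. Of the 212 genes called in all wildtype livers, 211 had the same sign there and 158 (74.5%) were called in the same direction, and 0 in the opposite one. Over all 15461 genes without the 4 livers, the log2 fold changes of the 2 genotypes had a Pearson correlation of 0.727. The share of same signs over all genes was not computed, so whether shared direction is particular to the called genes is not shown. The log2 fold changes of Msmo1, Csad, Abcg5, Apoa4 and Khk in that knockout set were -2.72, -2.12, 2.08, 3.66 and 0.83. Hcn3, Bglap3, Rora and Glul were not called in it, at 1.21, -1.22, -0.13 and 0.33. In the test of the difference in diet effect between genotypes, edgeR called 0 of 15296 genes in all livers and 0 without the 4, with 285 and 503 genes at an unadjusted p under 0.05, and DESeq2 and limma voom called 0 in all livers. A gene that misses this threshold is not shown to respond alike in both genotypes.

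**Figure D5:**
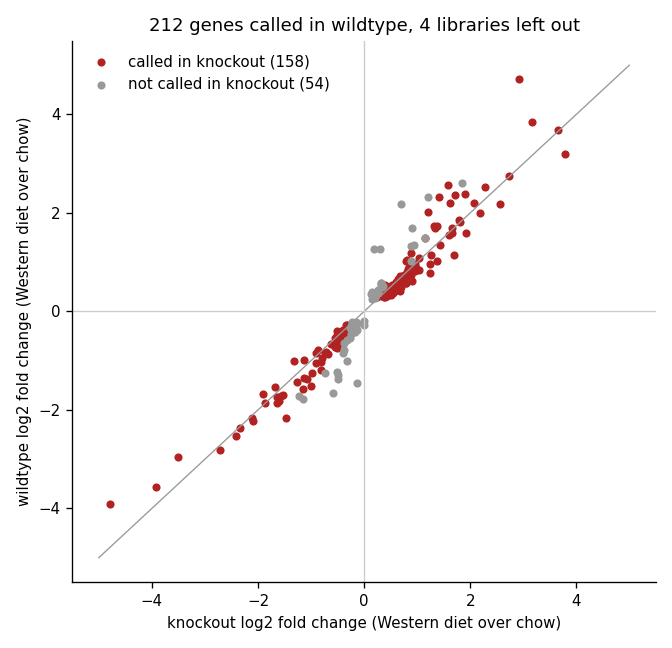
Log2 fold change of Western diet over chow in wildtype (y axis) and knockout livers (x axis), without 4 livers out of place, for the 212 genes called in all wildtype livers. Red points (158) were called in knockouts too, grey points (54) were not, and the line marks equal values.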

How the data were processed

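Libraries from whole liver RNA were prepared with the NEBNext Ultra chemistry and sequenced paired-end, per the labels. The deposited values are raw counts per gene; the authors aligned reads to GRCm39 with STAR 2.7.8a and counted them with featureCounts 2.0, after FastQC and MultiQC checks, per the submitters' processing notes. The annotation release and strand setting are not given in the sources used here. A symbol was found for 52083 of 55416 gene identifiers, which carry 99.4% of counts.

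Genes were kept with filterByExpr of edgeR 4.0.16 (minimum count 10, minimum total 15), which left 15296, and scaled by TMM. All 39 libraries entered a single quasi-likelihood fit with 1 coefficient for each group (robust estimateDisp and glmQLFit, then glmQLFTest, in R 4.3.3), with adjusted p values over all tested genes and a threshold of 0.05. Log2 CPM used a prior count of 2. Labels do not say how mice were housed or handled together, so p values measure only the spread between mice of the same group. That spread was estimated from all 39 livers, knockouts included, and not from the wildtype livers alone. The fit without both wildtype livers A kept knockout chow D and knockout Western diet M. Without those as well, 659 genes were called higher and 680 lower in wildtype livers. The part of counting error in this spread was not tested, and it weighs most on genes of low level.

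Genes and lists were chosen with earlier results of these data known. There were 55 lists with 1227 genes, of which 97 are in several lists. Named genes are the 10 highest and 10 lowest called with a symbol and a mean of at least 1 CPM, in each of the 2 sets of livers, up to 6 called members per list and set, 2 members of each list with no call, and a short list of well-known genes, some of which are not reported here. Alternatives were RLE factors, DESeq2 1.42.0, limma 3.58.1 voom with sample weights, no filter, a block for the replicate letter, library number as covariate, only the groups compared, and livers left out. Letters do not pair mice across diets: the deviations of same-lettered livers correlated at -0.0685 on average, and 0 of 5 correlated best with their own letter. Promoters are RefSeq sequences of build GRCm38.p6. Gene overlaps come from GENCODE M21 by name only. Figures used matplotlib.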

Additional observations from a re-analysis of the deposited data

Results flagged for a closer look

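In the group of 5 chow livers, 101 values (genes named in the text, the diet position and 2 list means) were searched for a liver whose gap to the nearest other exceeds Dixon's limit for 5 samples. There were 26, and 25 of them were chow A. Chance flags about 1 in 20 groups, and genes of 1 pathway are not independent. Chow A had already been singled out by its diet-responsive genes, and many of the values searched are of such genes, so this count restates that observation and is no test of it. Chow A stood out by its diet position (0.852) and by the mean level of the sterol synthesis list (5.19 log2 CPM). For single genes, as log2 CPM, chow A stood out with Cyp51 at 5.47, Msmo1 at 5.12, Mvk at 3.20, Fdft1 at 4.70, Nsdhl at 4.95, Sqle at 3.07, Idi1 at 1.45, Dhcr7 at 5.73, Lss at 5.10, Srebf2 at 5.33, Stard4 at 5.31. It also stood out with Scp2 at 11.82, Csad at 7.98, Pemt at 7.80, Tkfc at 9.41, Ces1b at 3.61, Agxt at 7.20, Enho at 0.72, Chac1 at 3.51, Adgrf1 at -0.24, Hcn3 at 4.29, Ntrk2 at 2.53 and Aldoc at 2.16. Chow B stood out with Cideb at 6.20. No gene differed in diet effect between the genotypes by the test of that difference, and Western diet groups, with 15 livers, were not searched. The part of chow A in each fold change is shown by the values without both livers A.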

How the results depend on the processing

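Counts of calls moved with the setting. The 52 called genes that the text names kept their sign in each of the 32 alternatives run, each wildtype liver left out included. They were chosen for their calls in these data, so a kept sign was likely beforehand and is no test. Of the 52, 52 stayed called with RLE scaling, 49 with DESeq2 and 50 with limma voom. Only 8 stayed called with the replicate letter as a block, and 0 with the library number. Without chow B, C, D or E, 0, 4, 3 and 7 stayed called. Shares are percentages of the genes tested, higher first, and the cause of the moves was not tested. In wildtype livers they were 0.771% and 0.615%, against 0.706% and 0.693% with RLE scaling, 1.17% and 0.803% with only the 2 groups compared, 1.90% and 1.47% with DESeq2, and 3.25% and 3.42% with limma voom. No filter on low counts gave 0.0633% and 0.0578%, and the library number as covariate 0 and 0. Summing Western diet L and M, the closest pair of livers (chi-square 3.70 per gene, the next pair 11.2, the median of all pairs 51.7), gave 0.397% and 0.358%. With L and M summed, 28 of the 52 stayed called. Whether L and M are independent of each other was not tested. Shares were 2.72% and 3.17% without both livers A, 4.26% and 4.40% without the 4 livers out of place, and 2.00% and 2.82% without both livers A and chow E. Without Western diet F, G, L, N and M they were 0.830% and 0.425%. The last 2 settings were added after the data were seen. Leaving out 1 wildtype liver at a time gave 0 to 1.77% higher, the most without chow A, and 0 to 1.87% lower. With the replicate letter as a block, which the labels do not say pairs mice, 0.248% and 0.0785% were called, and 6 list genes.

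Of the list genes, 39 were called, and 40 with RLE scaling, 50 with only 2 groups, 90 with DESeq2, 146 with limma voom, 9 with no filter, 0 with the library number and 22 with L and M summed. There were 133 without both livers A, 163 without 4 livers, 100 without both livers A and chow E, and 0 to 93 with 1 liver left out. In knockouts, with 0 higher and 0.00654% lower, DESeq2 gave 1.07% and 0.431%, limma voom 2.65% and 2.61%, and the fit without 4 livers 9.69% and 7.50%. Without both wildtype livers A it was 0.144% and 0.223%, and without chow E too 0.0582% and 0.136%. No filter, the block, the library number, only 2 groups and the fit without 5 Western diet livers gave 0 lower. With 1 wildtype liver left out, 0 to 0.0394% were higher and 0 to 0.0460% lower in knockouts. The difference between genotypes had 0 calls with 1 wildtype liver left out and 0.00653% without the 5 Western diet livers.

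Some genes that were not called in any of these sets changed sign. Without the 5 livers Saa1 was at -2.08 and Mt1 at -1.53. Arntl was at 0.12 under the block and 0.077 with the library number. Col1a1 was at -0.017 with limma voom, -0.14 under the block and -0.026 to 0.28 with 1 liver left out. Cd163 was at 0.11 without both livers A, 0.11 without 4 livers, 0.12 without both livers A and chow E, and -0.23 to 0.11 with 1 liver left out. With 5 chow livers, the calls rest on few animals.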
